A study of Drosophila melanogaster with 34 samples.

Results

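In Drosophila S2 cells, 2796 peaks of the zinc finger protein Crooked legs (Crol) overlapped no peak of Crol or of its partner Combgap (Cg) in larval brains and imaginal discs. They are called S2-only peaks here. They were selected from the 9593 Crol peaks that S2 cells had on the X, on both arms of the second and the third chromosome and on chromosome 4 (assembly dm3), as those narrower than 1500 bp that shared not even 1 bp with a peak in any of 4 larval lists. The S2-only peaks made up 29.1% of all these S2 peaks and 32.4% of the 8642 that were narrower than 1500 bp. Both shares follow from the rule that chose the peaks, which used the overlaps themselves, and no comparison of S2-only with shared peaks below is a test of that choice.

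Crol is a nuclear protein with C2H2 zinc fingers, known from the ecdysone response during metamorphosis, and it binds DNA rich in runs of G. It shares genomic sites with Polycomb group proteins, which keep developmental genes repressed and are brought to DNA at Polycomb response elements by sequence-specific factors. Cg is one of these factors and binds GT-rich DNA. A ChIP-seq peak is a stretch of the genome where DNA recovered with an antibody is read more often than the local background, and its summit is the position of the highest signal. S2 cells are a cultured line derived from late embryos, with features of blood cells, whereas the larval material held several neural and epithelial cell types.

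Of the 34 samples in the series, the 10 behind the 5 peak lists used here were assigned by their titles. Crol in S2 cells labelled WT was precipitated with the antibody CrolN, raised against the N-terminal part of the protein, in 2 samples. The 4 larval lists, from 2 samples each, were Crol with the same antibody in crol-KO brains and discs, Crol in WT (Oregon) brains and discs, Cg in crol-KO brains and discs and Cg in WT brains and discs, all of larvae in their last instar. The crol-KO larvae still held faint Crol protein that the study regarded as maternal, so that list is one of reduced Crol and not of its absence. Other Crol samples of WT brains and discs, with CrolN and with the antibody CrolC against the C-terminal part, were not used. S2-only therefore means absent from the 4 lists used here. The S2 samples carry a tissue label of larval discs and brains, against their titles, and the input DNA of S2 cells is marked as re-used from elsewhere. Lists of peaks hold no marker of cell type, so the S2 label could not be checked in them. The authors had pooled the reads of both samples before calling peaks. Each group therefore gave 1 list with no replicate spread, and no difference below has a test between cells and larvae. Intervals are at 95%, for shares by the exact method of Clopper and Pearson and for medians from ranks by the binomial distribution. They cover no more than counting error in shares and the spread between peaks in medians. Neighboring peaks are treated as independent.

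The lists differed in depth, and this moved with the selection. From the peak values, 5.77 M reads were recovered for Crol in S2 cells. The Crol lists of larvae had 4.89 M reads in crol-KO and 4.24 M in WT, and the Cg lists had 3.57 M in crol-KO and 3.42 M in WT. The larval lists held 9883, 10139, 9299 and 8938 peaks in the same order, and these joined into 12282 larval regions. A weak site could therefore be called in S2 cells and be missed in the shallower larval lists, and the part of this in the number of S2-only peaks was not tested. The lists also differed in background. In S2 cells 16.6% of the peaks sat at the lowest background of their list, against 2.46% to 3.08% in the larval lists. The part of this was not tested either. In addition, the numbering of peaks skipped 332 to 357 numbers in each larval list and 342 in the S2 list, and the peaks with these numbers were not analysed here. Of the S2-only peaks, 163 (5.83%, interval 4.99 to 6.76) lay between the 2 larval peaks that flank a skipped number, called beside a skipped number here. A larval peak with that number could overlap them, so the status of these 163 is uncertain. Without them 2633 S2-only peaks were left.

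The remaining S2 peaks narrower than 1500 bp served for comparison. Of these, 4061 overlapped a peak in all 4 larval lists and 1785 overlapped peaks in 1 to 3 of them. Peaks in an intermediate number of lists were the less common case, with 532 in exactly 1 list, 502 in 2 and 751 in 3. When exactly 1 larval list held the site, the list was that of Crol for 132 (crol-KO) and 198 (WT) peaks, and that of Cg for 127 (crol-KO) and 75 (WT). S2 peaks of 1500 bp or more numbered 951, and 130 of them (13.7%, interval 11.5 to 16.0) overlapped no larval peak.

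The S2-only peaks were weaker than the peaks shared with larvae. Fold enrichment, which relates the reads piled up at the summit to the background around it, had a median of 3.22 (interval 3.17 to 3.29) in S2-only peaks. The median was 3.76 (interval 3.66 to 3.83) in peaks of 1 to 3 larval lists and 5.56 (interval 5.44 to 5.66) in peaks of all 4. The values overlapped widely between the classes, from 1.43 to 25.5 in S2-only peaks, from 1.51 to 30.0 in peaks of 1 to 3 lists and from 1.58 to 31.9 in peaks of all 4. A fold enrichment under 3 was found for 43.2% of the S2-only peaks, for 26.2% of peaks in 1 to 3 lists and for 6.77% of peaks in all 4. At the upper end the S2-only peaks and the partly shared ones were alike in share. A fold enrichment of 10 or more was reached by 98 S2-only peaks (3.51%, interval 2.85 to 4.26) and by 63 peaks of 1 to 3 lists (3.53%, interval 2.72 to 4.49), against 455 peaks of all 4 lists (11.2%, interval 10.2 to 12.2).

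The pileup at the summit differed more between the classes than the background. The median pileup was 68 reads in S2-only peaks, 79 in peaks of 1 to 3 lists and 127 in peaks of all 4. The median background was 19.7 reads in S2-only peaks, 19.7 in peaks of 1 to 3 lists and 21.4 in peaks of all 4. The median −log10 q at the summit, which measures how improbable the pileup is under the background, was 14.6 in S2-only peaks, 21.5 in the partly shared and 51.5 in the fully shared peaks. S2-only peaks had a median width of 516 bp, close to the 507 bp of peaks in 1 to 3 lists and below the 660 bp of peaks in all 4.

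When S2 peaks narrower than 1500 bp were ordered by fold enrichment, the S2-only share was highest at the weak end and leveled off without reaching 0. In the weakest decile, with fold enrichments from 1.43 to 2.47, 609 of 865 peaks were S2-only (70.4%, interval 67.2 to 73.4), and only 10.1% were in all 4 larval lists. In the fifth decile, between 3.81 and 4.38, the S2-only share was 28.7% (interval 25.7 to 31.8). In the seventh and eighth deciles it was 19.3% and 18.6%, and in the 2 strongest 14.6% (interval 12.3 to 17.1) and 15.7% (interval 13.4 to 18.3). The last 2 intervals overlap. In the strongest decile, from 9.01 to 31.9, 136 peaks were S2-only and 624 (72.1%) were in all 4 larval lists. Sites that were strong in S2 cells thus included S2-only peaks, at a lower share than the weak ones.

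**Figure D1:**
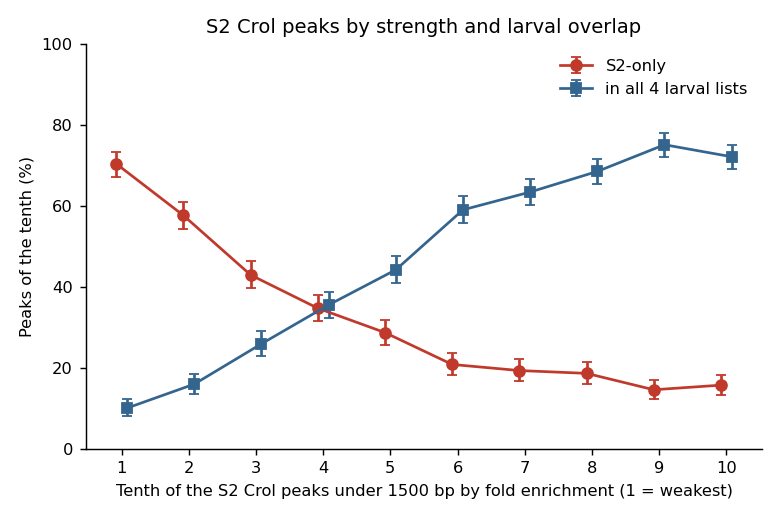
Share of S2-only peaks (circles) and of peaks found in all 4 larval lists (squares) among the S2 Crol peaks narrower than 1500 bp, in percent on the vertical axis, for 10 deciles of fold enrichment on the horizontal axis. Bars are exact 95% intervals, and the S2-only share is 70.4% in the weakest decile, 14.6% in the ninth and 15.7% in the strongest.

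The S2-only share also differed by width. Among S2 peaks under 400 bp, 708 of 1290 were S2-only (54.9%, interval 52.1 to 57.6). The share was 31.9% between 400 and 600 bp, 26.3% between 600 and 800 bp, 28.3% between 800 and 1000 bp, 24.6% between 1000 and 1250 bp and 19.5% (interval 16.2 to 23.2) between 1250 and 1500 bp. Width and strength moved together, so these shares are not independent of those by strength. A wider peak also has more bases that can touch a larval peak, so the fall with width is partly built into the rule. At the width limit, the 3 widest S2-only peaks measured 1498, 1492 and 1488 bp, with fold enrichments of 9.97, 8.74 and 7.92. The 3 narrowest S2 peaks that were excluded for width alone measured 1511, 1517 and 1518 bp, with fold enrichments of 11.8, 5.71 and 2.84.

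The strongest S2-only peak lay on arm 3L from 8665320 to 8666671, 1352 bp wide, with a fold enrichment of 25.5. Its summit held a pileup of 426 reads over a background of 15.7, and it ranked 17th of the whole S2 list. It was the only S2-only peak among the 100 strongest of the list, of which 52 were wider than the limit. Among the 100 strongest peaks under the limit, 12 were S2-only. The nearest larval peak to this site was a Crol peak of WT larvae, 1685 bp away, and its surroundings were rich in S2 peaks, with 12 others within 20 kb, against 3 larval regions.

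The second strongest S2-only peak, on 3L from 17609690 to 17610746, had a fold enrichment of 18.5 and stood 1428 bp from a Cg peak of WT larvae. The third, on 2L from 20935728 to 20936680, reached 17.8 with the highest pileup of the 10 strongest, 490 reads over a background of 26.5. No larval peak lay within 7700 bp of it and no other S2 peak within 7624 bp. The fourth, on 2L from 2227879 to 2228855 with 17.5, was of another kind, since it had a further S2-only peak at 207 bp and a Cg peak of crol-KO larvae at 978 bp.

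The fifth strongest was the most isolated of the 10. It covered bases 6291333 to 6292183 of 2L, where a pileup of 340 reads gave a fold enrichment of 17.2. The nearest larval peak was 24477 bp away, and within 20 kb there was 1 other S2 peak and no larval region. On X lay 3 of the 10. These were at 2087994 to 2088894 with 17.0-fold enrichment, at 13787061 to 13788321 with 16.9 and at 5874684 to 5875833 with 16.7, at distances of 9016, 1496 and 5878 bp from larval peaks. The ninth, on 3L from 10830827 to 10832170 with 16.6, lay in a stretch with 16 larval regions and 5 S2 peaks within 20 kb, 2790 bp from the nearest larval peak. The tenth, on 2R from 8885815 to 8886665 with 16.2, is one of those beside a skipped larval number, so its absence from larvae is uncertain. Across the 10, widths were 851 to 1352 bp, backgrounds 14.4 to 26.5 reads and pileups 255 to 490 reads, against medians of 19.7 reads of background and 68 of pileup in all S2-only peaks. The value of 14.4 is the lowest background of the list, at which 18.8% of all S2-only peaks sat.

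Arms 3R and 4 had no peak among these 10. The strongest S2-only peak of 3R lay from 22639794 to 22640505, with a fold enrichment of 15.4, 5650 bp from a Cg peak of WT larvae and 14705 bp from any larval Crol peak. The strongest of the fourth chromosome lay from 983601 to 984194 and reached 5.40, which was rank 3786 of the S2 list.

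All 6 arms carried S2-only peaks in broadly similar shares. Of the S2 peaks narrower than 1500 bp, 35.0% were S2-only on 3L (623 peaks), 34.5% on 2L (563), 31.7% on X (476), 31.1% on 3R (609), 30.0% on 2R (508) and 22.4% on the fourth chromosome (17 of 76, interval 13.6 to 33.4). The intervals of neighbors in this order overlap. The highest and the lowest share among the long arms had separate intervals, 32.7 to 37.2 on 3L and 27.8 to 32.3 on 2R, and no test across replicates was possible. Per megabase, between 21.2 and 25.4 S2-only peaks were found on the long arms and 13.3 on the fourth chromosome.

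X stood apart in background and not in share. The median background of S2-only peaks was 14.4 reads on X, which is the genome-wide minimum of the list, against 18.2 on 3L, 20.5 on 2L, 20.5 on 2R and 22.6 on 3R. On X 63.0% of the S2-only peaks sat at this minimum, and on the other long arms between 3.94% and 22.0% did. The other S2 peaks narrower than 1500 bp showed the same, with a median of 14.4 on X and 19.1 to 24.0 on 2L, 2R, 3L and 3R, so both classes shared the lower background of X. The median pileup of S2-only peaks was 57 reads on X, against 67 to 78 on the other long arms, while their median fold enrichment on X, 3.42, was within the 2.98 to 3.44 of those arms. The weakest S2-only peaks were rarer on X. By quartile of fold enrichment, X held 11.3% of the weakest quartile, 18.3% and 18.6% of the middle ones and 19.9% of the strongest. The peaks of the weakest quartile had a median background of 21.4 reads, against 18.8 in the strongest, and the part of the low background of X in this was not tested. Quartile shares on X were not computed for the other S2 peaks, so these values are not read as particular to S2-only peaks.

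**Figure D2:**
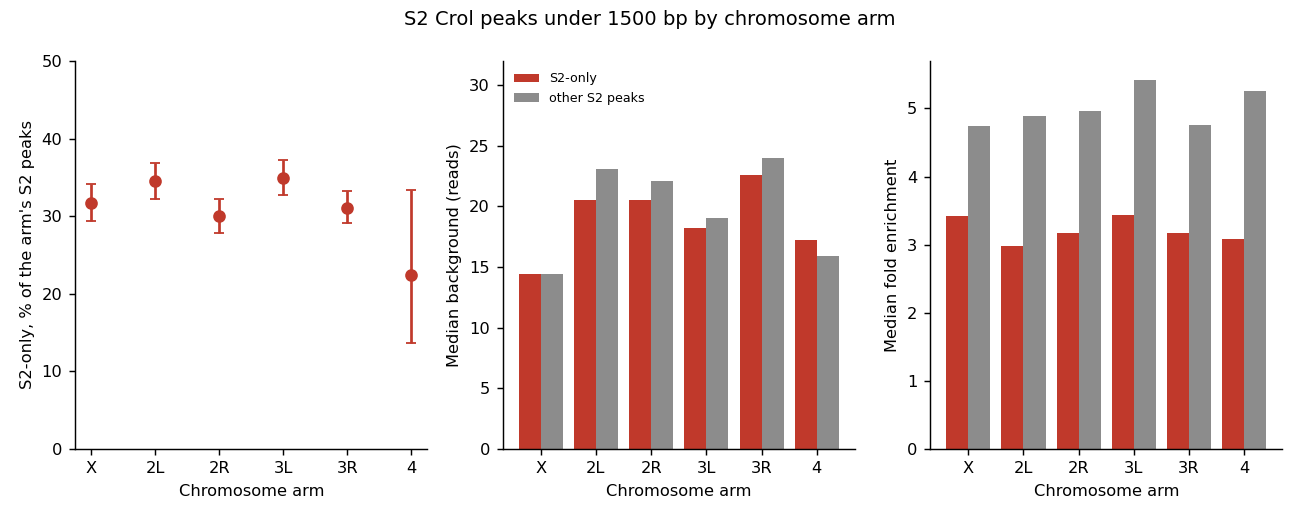
S2-only share of the S2 Crol peaks narrower than 1500 bp by chromosome arm (left, percent, with exact 95% intervals), median background in reads (middle) and median fold enrichment (right) of S2-only peaks, left bar of each pair, and the other S2 peaks. The shares on the 5 long arms run between 30.0% and 35.0%, and the background is lowest on X, 14.4 reads in both classes.

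Position along the arm was compared after the values were seen, by counting within 2 Mb of either end of the 5 long arms. Over these arms, the S2-only share was 33.3% (interval 28.7 to 38.0) at the centromere end, 31.3% (interval 28.1 to 34.7) at the telomere end and 32.5% between. Single arms departed from this in opposite directions. Among telomere ends, 3R had the highest share, 61 S2-only peaks of 133 (45.9%, interval 37.2 to 54.7). The lowest was on 2R, 32 of 182 (17.6%, interval 12.3 to 23.9). Among centromere ends, the highest share was on 2L, 35 of 79 (44.3%, interval 33.1 to 55.9). The lowest was on 3L, 5 of 33 (15.2%, interval 5.11 to 31.9). These are the extremes of all arm ends, and their intervals do not allow for that choice. The 3 S2-only peaks farthest from any larval peak lay near centromere ends, on 2R from 811442 to 812017 at 94365 bp, on X from 22134865 to 22135489 at 80167 bp and on X from 22114321 to 22114875 at 59623 bp. They were of ordinary strength, with fold enrichments of 3.42, 2.34 and 4.41, and had neither an S2 nor a larval neighbor within 20 kb, apart from the pair on X, which stood 19989 bp from each other.

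Most S2-only peaks had a larval peak in the neighborhood. The distance between the ends of an S2-only peak and the nearest larval peak had a median of 2218.5 bp (interval 2066 to 2343). Peaks shared with larvae lay at a similar distance from the nearest larval peak that they did not overlap, 1986 bp for peaks of 1 to 3 lists and 2292 bp for peaks of all 4. Within 5 kb such a peak was found for 75.8% of S2-only peaks, for 79.0% of peaks in 1 to 3 lists and for 77.1% of peaks in all 4. Within 20 kb, S2-only peaks had a median of 5 larval regions, against 6 in both shared classes. The count in the shared classes includes the region that the peak itself overlaps, so no sparser larval neighborhood is read from this difference. The remaining 677 S2-only peaks (24.2%, interval 22.6 to 25.8) had no larval peak within 5 kb, 237 (8.48%) had none within 10 kb, 63 (2.25%) none within 20 kb and 6 none within 50 kb.

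At the near side, 800 S2-only peaks (28.6%, interval 26.9 to 30.3) lay within 1 kb of a larval peak. The 3 nearest were at 8, 25 and 27 bp, on 3L from 16470735 to 16471264, on 3L from 3387707 to 3388530 and on X from 5326605 to 5327015, and 33 in all were within 100 bp. No S2-only summit lay within 300 bp of a larval summit, which the rule and the extension of reads to 300 bp nearly force. Summits were within 500 bp of a larval one for 11 S2-only peaks and within 1000 bp for 332 (11.9%). Of the 800 peaks with a larval peak within 1 kb, 585 (73.1%) had both a Crol and a Cg peak there, 158 (19.8%) had Crol alone and 57 (7.13%) had Cg alone. How often larval regions hold both in general was not computed, so the 73.1% is not read as particular to these neighbors. By list, the share of all S2-only peaks with a peak within 1 kb was 22.1% for the crol-KO and 22.2% for the WT Crol list, and 20.8% for the crol-KO and 18.7% for the WT Cg list. These shares go with the number of peaks in each list, and no order was read from them.

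Strong and weak S2-only peaks differed little in their distance to larval peaks. The median was 1850 bp in the weakest quartile, 2198 and 2410 bp in the middle quartiles and 2429 bp in the strongest, with wide spreads of 698 to 4449.5 bp between the inner quartile bounds in the weakest and 999.5 to 5112.5 bp in the strongest. No larval peak lay within 5 kb for 22.0% (interval 19.0 to 25.3) of the weakest quartile and for 25.9% (interval 22.7 to 29.3) of the strongest. Width differed more, with a median of 383 bp in the weakest quartile and 775 bp in the strongest.

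S2-only peaks lay close to other S2 peaks, and in particular to each other. The median distance to the nearest other S2 peak was 1150 bp (interval 1082 to 1261), against 1711 bp for peaks of 1 to 3 larval lists and 2249 bp for peaks of all 4. Another S2 peak stood within 1 kb of 1298 S2-only peaks (46.4%, interval 44.6 to 48.3), of 34.3% of peaks in 1 to 3 lists and of 28.9% of peaks in all 4. For an S2-only neighbor within 1 kb the shares were 26.1% (interval 24.5 to 27.8), 10.8% and 7.71%, in the same order of classes. For a neighbor of 1500 bp or more they were 8.05%, 4.59% and 3.13%. Within 5 kb, 52.4% of S2-only peaks had another S2-only peak, against 32.4% of peaks in 1 to 3 lists and 27.3% of peaks in all 4.

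Most of the weak S2-only peaks with a close S2 neighbor were weaker than it, which their low rank makes likely. For the 1298 S2-only peaks with an S2 neighbor within 1 kb, the nearest neighbor had the higher fold enrichment in 841 cases (64.8%, interval 62.1 to 67.4). This neighbor was itself S2-only in 668 cases (51.5%), a peak of all 4 larval lists in 271 (20.9%), a peak of 1500 bp or more in 182 (14.0%) and a peak of 1 to 3 lists in 177 (13.6%). In the weakest quartile, 374 of 699 peaks (53.5%) had such a neighbor, which was stronger in 336 cases (89.8%). In the strongest quartile 300 of 699 peaks (42.9%) had one, and it was stronger in 88 cases (29.3%). A weak peak has more peaks that can be stronger than it, so the difference between quartiles is partly fixed by the ordering. The same holds for the 64.8%, since S2-only peaks were weaker than the shared S2 peaks. The share that the ordering alone would give was not computed, so no preference for stronger neighbors is read from these values. At the other extreme, 312 S2-only peaks (11.2%) had neither a larval nor an S2 peak within 5 kb. These isolated sites had a median fold enrichment of 3.50 and a range of 1.68 to 17.8, and 72 of them had 5 or more. Their 3 strongest members were the peaks on 2L and X with fold enrichments of 17.8, 17.2 and 16.7 described above.

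**Figure D3:**
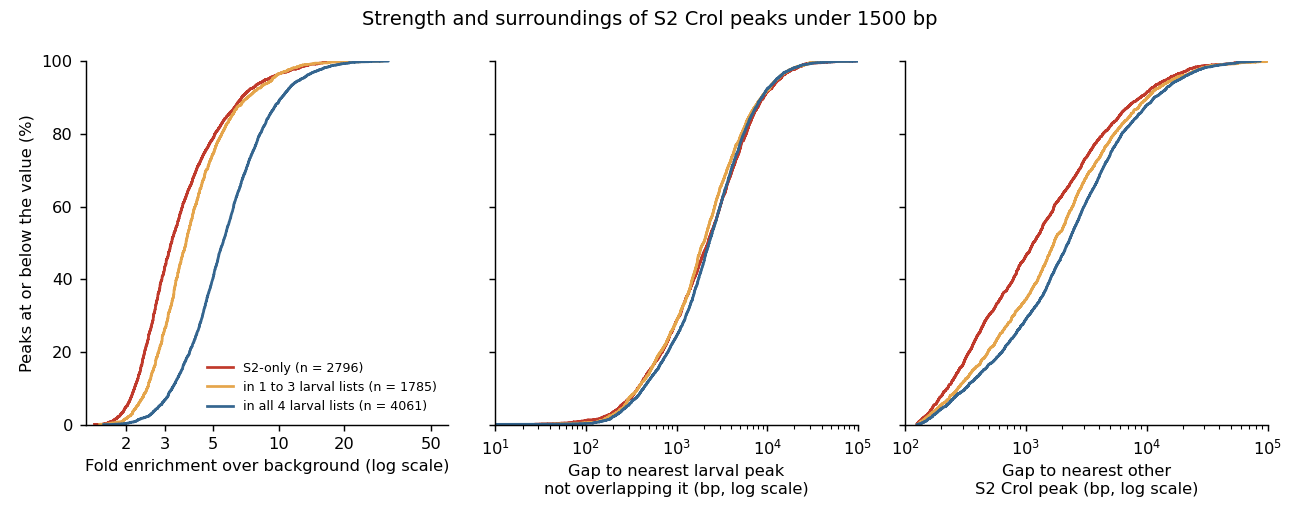
Cumulative share of peaks, in percent, by fold enrichment (left), by the gap in bp to the nearest larval peak that the peak does not overlap (middle) and by the gap in bp to the nearest other S2 Crol peak (right), all on log axes, for S2-only peaks (red, 2796), peaks of 1 to 3 larval lists (orange, 1785) and peaks of all 4 (blue, 4061). The curves lie apart for fold enrichment, with medians of 3.22, 3.76 and 5.56, and for the gap to S2 peaks, with medians of 1150, 1711 and 2249 bp, and nearly coincide for the gap to larval peaks.

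Along the chromosomes, S2-only peaks often followed one another. The next S2 peak after an S2-only peak was S2-only too in 1107 of 2794 cases (39.6%, interval 37.8 to 41.5). After a peak of 1 to 3 larval lists it was S2-only in 25.5% (interval 23.5 to 27.6), and after a peak of all 4 in 23.3% (interval 22.0 to 24.6). After a peak of 1500 bp or more it was S2-only in 289 of 951 cases (30.4%, interval 27.5 to 33.4). This interval holds the 29.1% of all S2 peaks that were S2-only. When only next peaks within 5 kb were counted, the shares were 44.5% (interval 42.2 to 46.9) after S2-only peaks, 25.5% after peaks of 1 to 3 lists, 22.3% after peaks of all 4 and 36.3% (interval 32.4 to 40.3) after peaks of 1500 bp or more. The share over all next peaks within 5 kb was not computed, so these shares have no such baseline. Neighboring peaks of 1 region share local background and coverage, and the part of these in the succession was not tested. Runs were then taken as neighboring S2 peaks that were all S2-only with no larval peak between them. Of the 2796 peaks, 1257 stood alone, 842 were in 421 runs of 2, 390 in 130 runs of 3, 180 in 45 runs of 4 and 127 (4.54%) in 23 runs of 5 or more.

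The longest run held 10 peaks over 39058 bp on 3L, from 85199 to 124256. Fold enrichments in it ran between 2.34 and 13.0 with a median of 3.35. The strongest peak, from 91772 to 93021 with a pileup of 233 reads, was the third of the run and 1250 bp wide. The second highest, from 103414 to 103868, had a fold enrichment of 5.66 and a pileup of 87 reads. The other 8 lay between 2.34 and 3.64. Larval peaks lay 10856 bp before the first peak of the run and 3962 bp after the last. The next run held 7 peaks over 10080 bp on X, from 3334473 to 3344552. Its fold enrichments ran between 2.21 and 6.37, with pileups of 36 to 98 reads. The background was 14.4 to 14.6 reads in 6 of the 7 peaks and 18.0 in the peak from 3340082 to 3340817, and the strongest peak was the third, from 3335882 to 3337294. The third run named held 6 peaks over 18774 bp on 3L, from 7808792 to 7827565, with fold enrichments of 1.76 to 6.17. No peak of these 3 runs lay beside a skipped larval number, and no S2 number was skipped inside them.

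This last run was part of the 100 kb window with the most S2-only peaks. On 3L between 7800001 and 7900000, 15 of 25 S2 peaks were S2-only, against 16 larval regions in the same window and a median of 2 S2-only peaks per window on this arm. None of the 15 was among the strongest, with fold enrichments of 1.76 to 6.17. The other 10 S2 peaks of the window ran between 3.29 and 22.6. The densest windows of the other arms held 13 S2-only peaks of 28 S2 peaks on X (7500001 to 7600000), 13 of 22 on 3R (11800001 to 11900000), 12 of 25 on 2L (5000001 to 5100000), 11 of 20 on 2R (15000001 to 15100000) and 4 of 8 on the fourth chromosome (100001 to 200000). Strong S2-only peaks occurred in some of them, with 13.8-fold enrichment on X from 7555128 to 7555839, 13.7-fold on 2L from 5028857 to 5030039 and 10.6-fold on 3R from 11830459 to 11831408.

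The 3R window had the highest backgrounds of these. In it the S2-only peak from 11830459 to 11831408 had a pileup of 597 reads over a background of 55.6, and the peak from 11855743 to 11856394 had 324 reads over 72.8, where the median background of S2-only peaks on 3R was 22.6. The lowest background among its 13 S2-only peaks was 33.0 reads, from 11812664 to 11813553. Of the 13, 3 lay beside a skipped larval number. In the X window the background of 8 of 13 S2-only peaks was at the minimum of 14.4 reads. Dense windows were few. Of 1206 windows, 16 held 10 or more S2-only peaks, and these contained 185 (6.62%), while 338 windows (28.0%) held none.

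**Figure D4:**
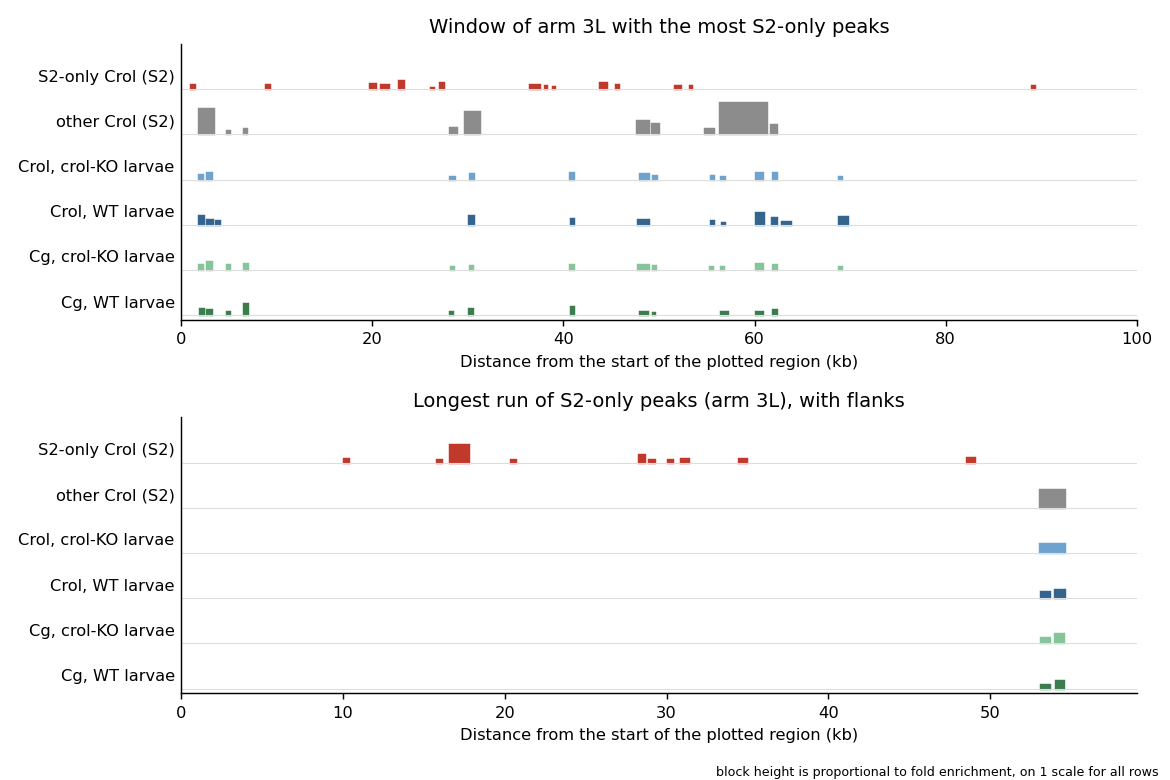
Peaks in the 100 kb window of arm 3L with the most S2-only peaks (top) and around the run of 10 S2-only peaks on 3L with 10 kb on either side (bottom), with the distance from the start of the plotted region in kb on the horizontal axis. Each block is 1 peak, and its height is proportional to its fold enrichment, which is comparable within a list only. The rows of S2-only and of other S2 peaks come from 1 list. The 15 S2-only peaks of the window stand between and beside blocks of other rows. The run of 10 has no larval peak within it, as the definition of a run requires.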

How the data were processed

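Peaks of Crol in S2 cells and of Crol and Cg in larval brains and discs were analysed from 5 deposited lists, each from 2 samples grouped by their titles. The authors trimmed reads with Trim Galore (version 0.6.5 in the submitters' processing notes), aligned them to dm3 with Bowtie2 (2.3.5), removed duplicates with SAMtools (1.13), pooled replicates and called narrow peaks with MACS2 (2.2.5) at a q-value of 0.05, with reads extended to 300 bp. Per the file contents, the deposited fold enrichment is the ratio of pileup to background at the summit. The deposited −log10 p-value and −log10 q-value are those of the summit, and the deposited score, 10 times the −log10 q-value, was not used. These values depend on depth and were compared only within the S2 list.

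S2-only peaks were those of the 6 arms narrower than 1500 bp with no overlap of 1 bp or more with any larval peak. Distances are gaps between peak ends. Since MACS2 adds 1 to both pileup and background before dividing them, and takes p from a Poisson distribution, both could be solved for. The pileup came out whole, within 0.02, for 100% of peaks in all 5 lists. The lowest background of a list, taken as the genome-wide one, gave the read number for reads of 300 bp and the preset genome of 120 Mb. The read number gives the precision only indirectly, through the lowest pileup called, 28 reads in S2 cells and 20 to 26 in the larval lists. Functions were tested on simulated data with known answers. Python 3.11.15, numpy 2.4.6, pandas 2.3.3 and scipy 1.17.1 were used.

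Named peaks were the 10 S2-only peaks with the highest fold enrichment, the strongest of each arm, the 3 longest runs (ties by median fold enrichment), the 100 kb window of each arm with the most S2-only peaks, the 3 on either side of the width limit, and the 3 farthest from and the 3 nearest to a larval peak. The members, lists and comparisons were chosen with earlier results of these data known, and the close neighbors, the isolated peaks and the position along the arm were added after the values were seen. No p-value is given, since each list pools its samples. The alternatives were other overlap rules, stricter q-values, no width limit, the WT Crol list alone and leaving out peaks beside skipped numbers. Genes and sequences at the peaks were not analysed here, because the annotation at hand is of another assembly than dm3.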

Additional observations from a re-analysis of the deposited data

Results flagged for a closer look

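Outside the 6 arms, 44 Crol peaks of S2 cells narrower than 1500 bp lay on the sequences that dm3 assigns to heterochromatin, and 10 of them overlapped no larval peak (22.7%, exact interval 11.5 to 37.8). They are given here because no comparison above used these sequences. Of the 10, 4 lay on 3LHet, 3 on XHet and 1 each on 2LHet, 2RHet and 3RHet. Their fold enrichments ran between 2.27 and 4.15 with a median of 2.64. They overlap the range of the S2-only peaks on the arms, which had a median of 3.22, and the interval of their share holds the 32.4% found there for peaks under the same width.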

How the results depend on the processing

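The number of S2-only peaks, 2796, stayed within 1.5 times under all 8 alternatives, with 1996 when larval peaks within 1000 bp counted as shared and 3854 against the WT Crol list alone. The share of 29.1% moved beyond its interval under 7 of them. It was 20.8% with larval peaks within 1000 bp counted as shared, 34.7% when peaks counted as shared only from 50% of the length of each, 30.7% when the S2 summit had to lie inside a larval peak, 27.5% over S2 peaks with a −log10 q of at least 5, 30.7% against larval peaks with a −log10 q of at least 5, 30.5% with no width limit and 40.2% against the WT Crol list alone. It was 28.3% without the peaks beside skipped numbers.

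The share of S2-only peaks on X, 17.0%, stayed within its interval throughout (16.3% to 17.5%). The median fold enrichment ran between 3.23 and 3.40, the median width between 503 and 536.5 bp, the share with no larval peak within 5 kb between 20.3% and 33.9% and the share with another S2-only peak within 5 kb between 45.4% and 55.7%. No paired analysis was possible because each list pools its 2 samples and holds no value per replicate, and for the same reason no replicate could be left out. The comparisons of sequence, of the genes around the peaks and of 100 bp windows at summits were not run. The depth of the larval lists, 3.42 to 4.89 M reads against 5.77 M in S2 cells, limits what an absence from them can show.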
